A study of Mus musculus with 4 samples.

Results

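The TNF superfamily is a set of cytokines, mostly anchored in the cell membrane as trimers, and the receptors that they bind. Ligand binding clusters the receptor, which recruits adaptor proteins of the TRAF family or, where the receptor has a death domain, adaptors that can also start caspase-driven cell death. Most signalling receptors of the family activate NF-kB transcription factors, and decoy receptors bind a ligand without passing on a signal. In the gut the family shapes inflammation, lymphoid tissue, antibody production and the survival of the epithelium.

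The members were the genes of the array annotation whose symbol starts with Tnfsf or Tnfrsf, together with Tnf, Lta, Ltb, Ltbr, Fas, Fasl, Cd27, Cd40, Cd40lg and Cd70. This gave 39 members of 19938 genes, 15 of them ligands and 24 receptors, each read by 1 probe set that carried a single gene symbol. Of the 24 receptors, 5 were death receptors, 15 were other signalling receptors, 3 were decoys, and 1, Tnfrsf26, was left without a role. A mean log2 intensity of at least 6 over the 4 arrays was required before differences were counted, which 26 members and 11815 genes met, and the other 13 members are described by their levels.

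Colons came from sex-matched C57BL/6 mice of 6 to 8 weeks in a model of colitis-associated cancer. All 4 groups received the carcinogen azoxymethane at 10 mg/kg and then, after 5 days, dextran sulfate sodium, which injures the colon lining, at 3.5% in the drinking water for 5 days. They were killed on day 12. The groups, each with 1 array, were DKO (Bmi1ΔIEC Mel18ΔIEC), Bmi1_KO (Bmi1ΔIEC), Mel18_KO (Mel18ΔIEC) and WT, where ΔIEC is the labels' mark for the deletion in intestinal epithelial cells. Bmi1 and Mel18 (gene symbol Pcgf2) encode related subunits of a Polycomb repressive complex. The sources used here do not give the promoter that drove the deletion or the number of mice behind each array. Peyer's patches had been removed, and the cells were those released from colon pieces by 5 mM EDTA in 20 minutes, with no sorting described.

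The comparisons ask how the members differed with either deletion alone, and how the double deletion differed from WT and from both single ones. With 1 array per genotype no difference between arrays has a replicate check, so differences are given as values, and a member is counted as higher or lower at 1.5-fold or more. The DKO array stood apart: across 11815 genes its correlation with the other arrays was 0.869 to 0.8998, against 0.976 to 0.984 among the others. Neither deleted gene checked the labels. Bmi1 was not lower on the arrays labelled as lacking it (7.64 in DKO, 7.43 in Bmi1_KO, 6.999 in Mel18_KO and 7.25 in WT), and Pcgf2 was lowest on Bmi1_KO, which is not labelled as lacking it (6.81, 6.72, 6.84 and 6.96 in the same order). The labels do not name the deleted exons. Epithelial identity was present on each array, with 26 of 26 pan-epithelial markers at a mean above the floor and Epcam at 12.38 in DKO, 12.05 in Bmi1_KO, 11.99 in Mel18_KO and 12.14 in WT. The leukocyte gene Ptprc was also read, at 9.96 in DKO, 7.94 in Bmi1_KO, 7.23 in Mel18_KO and 7.61 in WT. The WT array carried RNA of the seminal vesicle, with Svs4 at 4.16 in DKO, 5.73 in Bmi1_KO, 4.67 in Mel18_KO and 12.17 in WT, so the counts and medians of DKO against WT are also given against the single deletions, without WT.

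DNA upstream of the transcription start is shown for members at least 1.5-fold apart between DKO and WT. Left out are those without a window and Tnfrsf23, whose match is given in the next paragraph. RefSeq windows (build GRCm38.p6) of 300 bases, from 250 before to 50 after each start, were held for 30 of the 39 members in 34 windows, and none was used for Cd40, Tnfrsf11b, Tnfrsf10b, Tnfrsf22, Tnfrsf26, Tnfsf9, Tnfsf4, Cd40lg or Cd70. Below, Tnf (chr17:35202008-35202257, minus strand), Fas (chr19:34290409-34290658, plus strand) and Tnfrsf11a (chr1:105780473-105780722, plus strand) are given over the 250 bases before the start. Tnfsf13b (chr8:10006495-10006524 and chr8:10006603-10006632, plus strand) and Tnfrsf9 (chr4:150927947-150927976, plus strand) are given over 30 bases around each match, in the window of the second of their 2 starts. Capitals mark matches to the motifs named in the next paragraph.
Tnf: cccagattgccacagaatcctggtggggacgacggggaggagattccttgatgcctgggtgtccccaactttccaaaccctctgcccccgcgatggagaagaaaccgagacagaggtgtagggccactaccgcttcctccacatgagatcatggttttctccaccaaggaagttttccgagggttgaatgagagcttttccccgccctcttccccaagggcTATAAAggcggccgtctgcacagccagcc
Fas: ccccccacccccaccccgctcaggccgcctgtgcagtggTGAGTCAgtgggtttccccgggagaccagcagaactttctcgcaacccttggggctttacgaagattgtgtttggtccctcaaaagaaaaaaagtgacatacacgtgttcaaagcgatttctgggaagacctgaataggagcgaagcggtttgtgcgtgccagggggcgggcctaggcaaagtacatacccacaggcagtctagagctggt
Tnfsf13b, first stretch: cttgtctggagTGAGTCAgtctgaacccca
Tnfsf13b, second stretch: atcttacaaaaactGAAAGTGAAAtgcgga
Tnfrsf9: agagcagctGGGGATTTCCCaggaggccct
Tnfrsf11a: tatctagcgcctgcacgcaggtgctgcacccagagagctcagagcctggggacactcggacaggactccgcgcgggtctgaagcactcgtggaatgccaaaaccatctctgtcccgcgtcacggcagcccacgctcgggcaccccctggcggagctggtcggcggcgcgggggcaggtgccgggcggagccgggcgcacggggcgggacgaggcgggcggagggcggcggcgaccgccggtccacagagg

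The motifs were searched on both strands and are letters in DNA, not measured binding. The TATA box (TATAAA) of Tnf lay at -29 to -24 from the start. TATAAA was held by 6 of the 30 members (Lta, Tnf, Tnfrsf17, Tnfrsf23, Tnfsf11 and Tnfsf18). It was in 17.6% of member windows against 13.6% of all 32851 windows. In Tnfrsf23, not printed above, TATAAA lay at -158 to -153 on the other strand and was the only match to the 4 motifs. The AP-1 motif (TGANTCA) lay at -211 to -205 in Fas, at -127 to -121 in Tnfsf13b and, outside the stretch shown, at -15 to -9 in Tnfrsf9. It was held by 5 members (Fas, Tnfrsf8, Tnfrsf9, Tnfsf13b and Tnfsf14), in 17.6% of member windows against 7.81% of all windows. The interferon response core (GAAA, any 2 bases, GAAA) at -16 to -7 of Tnfsf13b was shared with Tnfrsf14, Tnfrsf17 and Tnfrsf1b, in 11.8% of member windows against 3.44% of all windows. The NF-kB consensus in Tnfrsf9 consisted of overlapping matches from -43 to -33, and Ltb, Tnfrsf8 and Tnfrsf25 also held it, 11.8% of member windows against 8.46% of all windows. Tnfrsf11a held no match to these 4 motifs, and its 300-base window was 76.7% G and C with 43 CpG pairs, against a median of 52.7% G and C over all windows.

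DKO differed from WT more than either single deletion did, across the family as over all tested genes. The members differed mostly upward, while over all tested genes more were lower than higher. Of 26 tested members, 7 were at least 1.5-fold higher on DKO than on WT (Tnf, Tnfsf13b, Cd40, Tnfrsf9, Fas, Tnfrsf23 and Tnfrsf11b), which is 26.9% of them against 13.5% of all tested genes. Tnfrsf11a was the 1 member at least 1.5-fold lower, 3.85% of the members against 20.9% of all tested genes. All 7 of the higher members also passed 2-fold, against 6.8% of all tested genes. Tnfrsf11a, at 1.98-fold, did not, where 8.48% of all tested genes were lower. Fas fell under 2-fold with median centring (0.93 on the log2 scale), and Fas (0.86) and Tnfrsf9 (0.88) with log2 of the value plus 32. The median difference of the members was 0.34 on the log2 scale, with 18 above 0 and 8 below, while the median of all tested genes was -0.07.

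**Figure D1:**
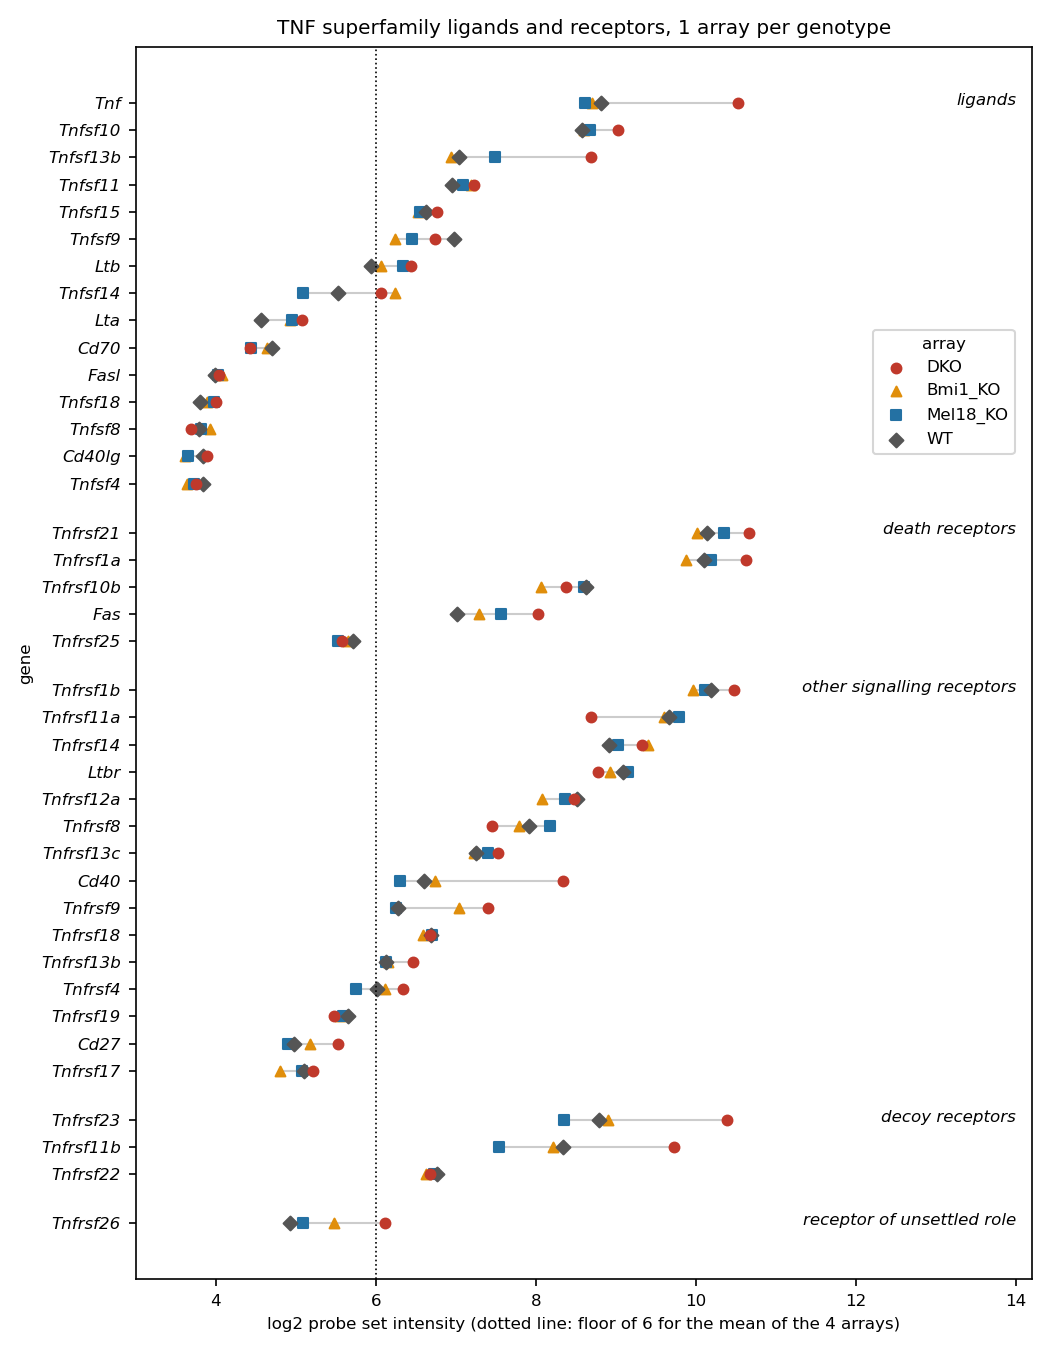
Log2 probe set intensity (x axis) of all 39 members, grouped by role (y axis), with 1 point per array and a line over the range of the 4 arrays. The DKO points of Tnf, Tnfsf13b, Cd40, Tnfrsf23 and Tnfrsf11b lie to the right of the other 3, the DKO point of Tnfrsf11a lies to the left, and 11 members lie under the floor of 6 on each array.

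Among the ligands, Tnf, the founding cytokine of the family, and Tnfsf13b (BAFF, a survival factor of B cells) were higher on DKO. Tnf (probe set 10450501) read, in log2 intensity, 10.53 in DKO, 8.71 in Bmi1_KO, 8.61 in Mel18_KO and 8.82 in WT. It was thus high on DKO alone, 1.71 above WT (3.27-fold), and the other 3 arrays spanned 0.20. Tnfsf13b (probe set 10570018) read 8.70 in DKO, 6.94 in Bmi1_KO, 7.49 in Mel18_KO and 7.05 in WT. Its DKO value was 1.65 above WT (3.14-fold), with Mel18_KO the next highest at 0.45 above WT.

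The other 5 ligands above the floor stayed under 1.5-fold between DKO and WT. Tnfsf10 (TRAIL, a ligand that can kill cells through death receptors) read 9.02 in DKO, 8.60 in Bmi1_KO, 8.67 in Mel18_KO and 8.58 in WT, a difference of 0.44 between DKO and WT. Ltb, the membrane-bound lymphotoxin chain needed for lymphoid tissue, read 6.44, 6.07, 6.34 and 5.95 in the same order. Both were highest on DKO, by 0.35 and 0.10 over the next array. Tnfsf11 (RANKL, which drives osteoclasts and, in the gut, M cells) differed from WT by 0.29 on DKO, and Tnfsf15 (TL1A, a costimulator of T cells) by 0.15. Tnfsf9 (4-1BB ligand) was highest on WT, at 6.74 in DKO, 6.24 in Bmi1_KO, 6.45 in Mel18_KO and 6.98 in WT.

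Among the death receptors, Fas alone was past 1.5-fold against WT. Fas (probe set 10462603), the receptor for Fas ligand, read 8.03 in DKO, 7.28 in Bmi1_KO, 7.56 in Mel18_KO and 7.02 in WT. All 3 deletion arrays were above WT, by 1.01 on DKO (2.01-fold), 0.26 on Bmi1_KO and 0.54 on Mel18_KO. Tnfrsf1a (probe set 10541895), the main receptor for soluble TNF, read 10.63 in DKO, 9.88 in Bmi1_KO, 10.19 in Mel18_KO and 10.10 in WT. Tnfrsf21 (probe set 10445241), known as death receptor 6, read 10.66, 10.02, 10.35 and 10.14 in the same order. Both were highest on DKO, by 0.53 and 0.52 over WT, just under the 1.5-fold threshold of 0.58. Tnfrsf10b, the signalling receptor for TRAIL in mice, was highest on WT, at 8.38 in DKO, 8.07 in Bmi1_KO, 8.60 in Mel18_KO and 8.63 in WT.

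Among the other signalling receptors, Cd40 and Tnfrsf9 were higher on DKO and Tnfrsf11a was lower. Cd40 (probe set 10478678), through which helper T cells activate B cells and phagocytes, read 8.34 in DKO, 6.74 in Bmi1_KO, 6.31 in Mel18_KO and 6.61 in WT. It was high on DKO alone, 1.73 above WT (3.32-fold). Tnfrsf9 (probe set 10510580), the costimulatory receptor 4-1BB, read 7.40 in DKO, 7.04 in Bmi1_KO, 6.26 in Mel18_KO and 6.27 in WT. The arrays fell into a higher pair, DKO and Bmi1_KO, and a lower pair, Mel18_KO and WT, with DKO 1.13 above WT (2.18-fold). Tnfrsf11a (probe set 10349051) encodes RANK, the signalling receptor for RANKL, which on gut epithelium is known for the differentiation of M cells. It read 8.68 in DKO, 9.60 in Bmi1_KO, 9.79 in Mel18_KO and 9.67 in WT. DKO alone was low, with a difference of -0.91 from the lowest of the others and of -0.98 from WT, while the other 3 arrays lay within 0.19 of each other.

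The remaining 9 signalling receptors above the floor were within 1.5-fold of WT on DKO. Tnfrsf1b (probe set 10518300), the TNF receptor of immune cells and injured tissue, read 10.47 in DKO, 9.96 in Bmi1_KO, 10.11 in Mel18_KO and 10.19 in WT. Tnfrsf14 (HVEM, a receptor for LIGHT and lymphotoxin) was above WT by 0.42 on DKO and 0.48 on Bmi1_KO. Tnfrsf8 (CD30) was lowest on DKO, at 7.45 in DKO, 7.79 in Bmi1_KO, 8.17 in Mel18_KO and 7.91 in WT. Ltbr, the lymphotoxin beta receptor, was also lowest on DKO, with a difference of -0.31 from WT. Tnfrsf13b (TACI) and Tnfrsf13c (BAFF receptor), which bind BAFF on B cells, differed from WT by 0.34 and 0.27 on DKO. Tnfrsf4 (OX40) differed by 0.33, Tnfrsf12a (the TWEAK receptor) by -0.04 and Tnfrsf18 (GITR) by -0.01.

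Of the 3 decoy receptors, 2 were higher on DKO. Tnfrsf23 (probe set 10569504), a mouse decoy for TRAIL, read 10.39 in DKO, 8.90 in Bmi1_KO, 8.35 in Mel18_KO and 8.79 in WT. Tnfrsf11b (probe set 10428604), or osteoprotegerin, a secreted decoy for RANKL and TRAIL, read 9.72 in DKO, 8.22 in Bmi1_KO, 7.54 in Mel18_KO and 8.34 in WT. Both were highest on DKO and lowest on Mel18_KO, and DKO exceeded WT by 1.60 (3.02-fold) for Tnfrsf23 and by 1.39 (2.61-fold) for Tnfrsf11b. Tnfrsf22, the other TRAIL decoy, lay beside Tnfrsf23 with no protein-coding gene between them in the RefSeq table, yet read 6.68 in DKO, 6.63 in Bmi1_KO, 6.73 in Mel18_KO and 6.77 in WT. By the difference between DKO and WT, the median of the 3 decoys was 1.39, that of 4 death receptors 0.53, that of 7 ligands 0.44 and that of 12 other signalling receptors 0.27. Against the mean of the single deletions these medians were 1.76, 0.54, 0.38 and 0.23 in the same order.

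**Figure D2:**
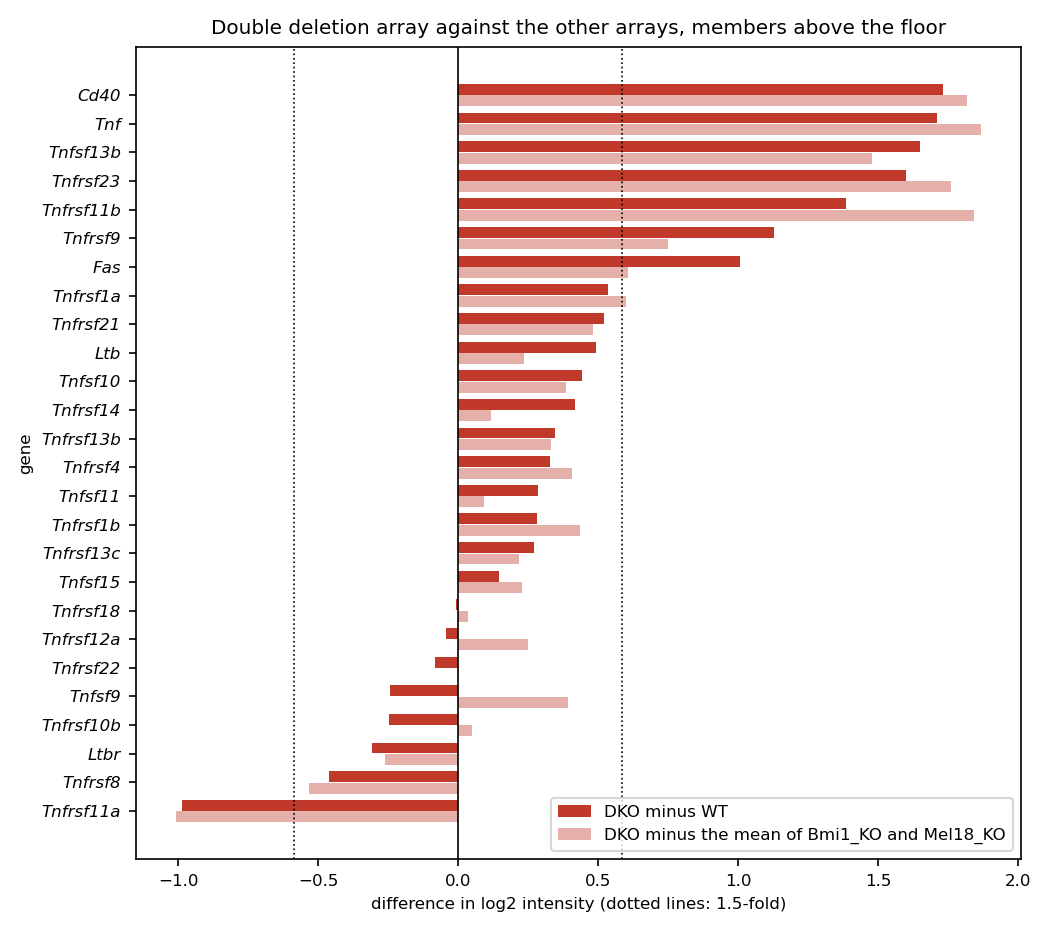
Difference in log2 intensity (x axis) of the 26 members above the floor (y axis), with dark bars for DKO minus WT and light bars for DKO minus the mean of Bmi1_KO and Mel18_KO. Dotted lines mark 1.5-fold; 7 dark and 8 light bars pass it to the right, and those of Tnfrsf11a pass it to the left.

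The 13 members below the floor were 8 ligands (Tnfsf14, Lta, Cd70, Fasl, Tnfsf18, Tnfsf8, Cd40lg and Tnfsf4), the death receptor Tnfrsf25, the signalling receptors Tnfrsf19, Cd27 and Tnfrsf17, and Tnfrsf26. For 11 of them no array reached 6, and their values ran from 3.61 to 5.72, where signal is close to background. Among these, Cd27, a costimulatory receptor of lymphocytes, read 5.52 in DKO, 5.18 in Bmi1_KO, 4.90 in Mel18_KO and 4.98 in WT. Lta, the soluble lymphotoxin, read 5.07, 4.93, 4.95 and 4.57 in the same order. Neither was 1.5-fold from WT on any array, and Cd27 on DKO was 0.63 above Mel18_KO. Tnfrsf26 read 6.12 in DKO, 5.48 in Bmi1_KO, 5.09 in Mel18_KO and 4.93 in WT, and Tnfsf14 (LIGHT, a T cell ligand of HVEM and the lymphotoxin beta receptor) read 6.06, 6.24, 5.09 and 5.53. Both had a mean under 6 and did not enter the counts, although Tnfrsf26 was 1.19 above WT on DKO and Tnfsf14 was 0.71 above WT on Bmi1_KO.

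Set out by ligand and receptor, the differences of DKO are given first from WT and then from the mean of the single deletions. For TNF, the ligand differed by 1.71 and 1.87, Tnfrsf1a by 0.53 and 0.60, and Tnfrsf1b by 0.28 and 0.43. In the RANKL system the ligand Tnfsf11 differed by 0.29 and 0.09, the receptor Tnfrsf11a by -0.98 and -1.01, and the decoy Tnfrsf11b by 1.39 and 1.84. The receptor was thus lower and the decoy higher in both comparisons. In the TRAIL system the ligand Tnfsf10 differed by 0.44 and 0.38, and the decoy Tnfrsf23 by 1.60 and 1.76. The signalling receptor Tnfrsf10b differed by -0.25 and 0.05, and the latter averages opposite differences, 0.31 from Bmi1_KO and -0.22 from Mel18_KO. For BAFF the ligand differed by 1.65 and 1.48, Tnfrsf13b by 0.34 and 0.33, and Tnfrsf13c by 0.27 and 0.22. Tnfrsf9 differed by 1.13 and 0.75 and its ligand Tnfsf9 by -0.24 and 0.39, so this pair lay on opposite sides only where WT was used. Cd40 and Fas were higher on DKO in both comparisons, while their ligands, Cd40lg and Fasl, read no more than 3.89 and 4.08 on any array.

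Against the average of the single deletions, a comparison that leaves WT out, 8 members were at least 1.5-fold higher on DKO, against 13.1% of all tested genes. They were the same 7 and Tnfrsf1a, and Tnfrsf11a was again the 1 lower member, against 19.7% of all tested genes. Both comparisons share the DKO array, so they are not independent. The differences were 1.87 for Tnf, 1.48 for Tnfsf13b, 1.81 for Cd40, 1.76 for Tnfrsf23, 1.84 for Tnfrsf11b, 0.75 for Tnfrsf9 and -1.01 for Tnfrsf11a. Fas (0.61) and Tnfrsf1a (0.60) lay just over the threshold of 0.58, and both fell under it with median centring and with log2 of the value plus 32. The members' median was 0.36, with 23 above 0 and 3 below, against -0.08 over all tested genes. On DKO, 5 members were at least 1.5-fold above each other array (Tnf, Tnfsf13b, Cd40, Tnfrsf23 and Tnfrsf11b), against 9.79% of all tested genes. Tnfrsf11a was the 1 member at least 1.5-fold below each other array, against 15.3%. By any amount, 17 members were above each other array on DKO, against 34.1% of all tested genes, and Ltbr, Tnfrsf11a and Tnfrsf8 were below, against 47.5%.

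In the departure from additivity, the DKO value minus both single deletions plus WT, 8 members were at least 1.5-fold above 0, against 14.4% of all tested genes. These were Tnfrsf11b (2.30), Tnf (2.02), Tnfrsf23 (1.92), Cd40 (1.90), Tnfsf13b (1.31), Tnfsf9 (1.02), Tnfrsf1a (0.66) and Tnfrsf1b (0.59). Tnfrsf11a (-1.03) and Tnfrsf8 (-0.60) were at least 1.5-fold below 0, against 19.9% of all tested genes. Fas (0.20) and Tnfrsf9 (0.37), which were higher on DKO, did not depart by 1.5-fold. For Tnfsf9 the departure came with a DKO value under WT and single deletion values lower still.

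The single deletions moved few members. Against WT, Bmi1_KO had 1 member at least 1.5-fold higher, Tnfrsf9 at 0.77 (1.71-fold), against 1.96% of all tested genes. It had 1 member lower, Tnfsf9 at -0.74 (1.67-fold), against 1.35% of all tested genes. Without WT, the difference between Bmi1_KO and Mel18_KO was 0.79 for Tnfrsf9 and -0.21 for Tnfsf9. The members' median on Bmi1_KO was -0.10, against -0.02 over all tested genes.

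Mel18_KO had 0 members at least 1.5-fold higher than WT, against 1.18% of all tested genes, and 1 lower, Tnfrsf11b at -0.80 (1.74-fold), against 2.09%. Tnfrsf11b was also at least 1.5-fold lower on Mel18_KO than on each other array, against 1.31% of all tested genes, and 0 members were higher than on each other array, against 0.0846%. The nearest to the threshold above WT was Fas, at 0.54, followed by Tnfsf13b at 0.45. The members' median on Mel18_KO was 0.01, against 0.01 over all tested genes. The 3 comparisons with WT share the WT array. Among the tested members, Fas, Tnfsf10, Tnfsf11, Ltb and Tnfrsf14 were lowest on WT. Tnfsf9, Tnfrsf10b, Tnfrsf12a and Tnfrsf22 were highest on WT. For these members the 1 WT value thus fixed the direction on the 3 deletion arrays.

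**Figure D3:**
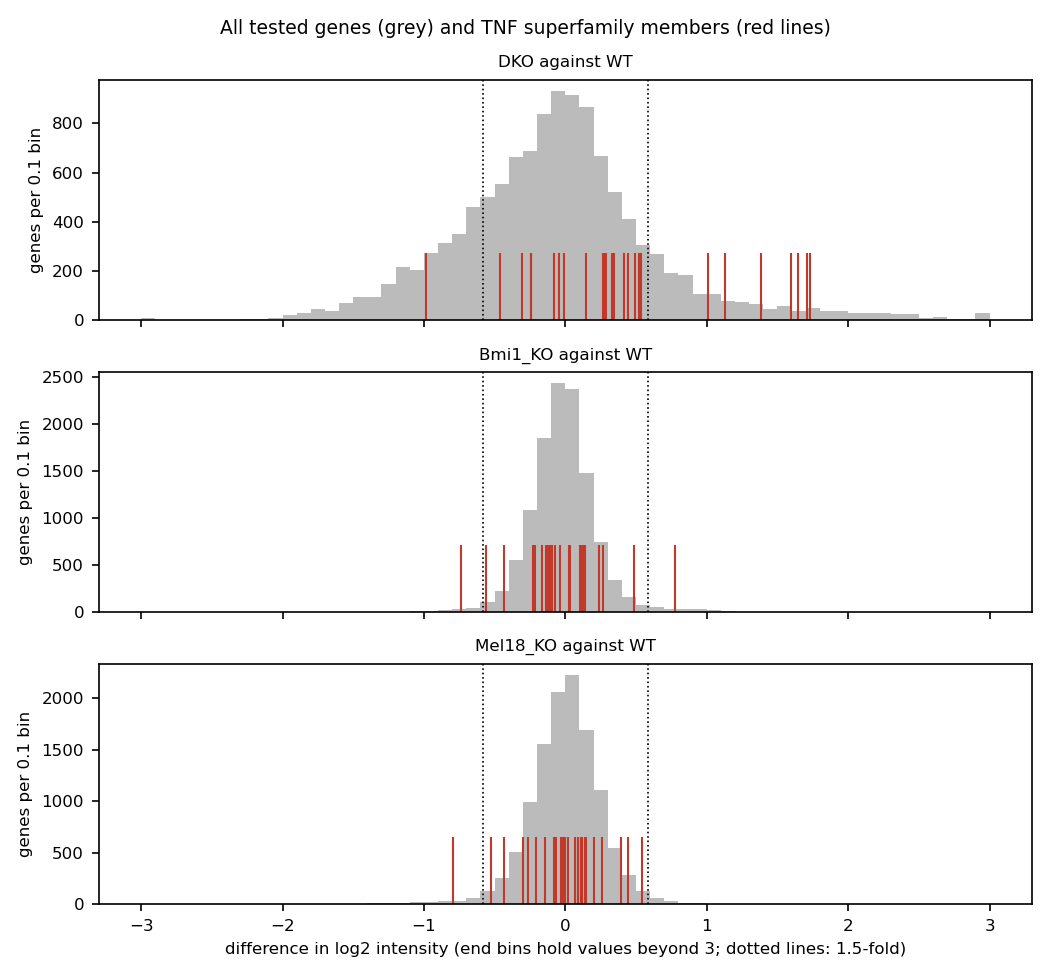
Histograms of the difference in log2 intensity (x axis) over the 11815 tested genes (grey, genes per bin on the y axis), with a red line for each of the 26 members, for DKO, Bmi1_KO and Mel18_KO against WT. The DKO histogram is the widest, and 7 red lines lie beyond the upper 1.5-fold line there, against 1 for Bmi1_KO and 0 for Mel18_KO.

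The average change with loss of each gene over both states of the other was tested with limma in an additive model, which has 1 residual degree of freedom. That degree holds the departure from additivity, so a member high on DKO alone has its own difference counted as error. The standard error (SE) was 0.55 for Tnf, 0.61 for Tnfrsf11b and 0.52 for Cd40, against 0.22 for Tnfrsf22. The test therefore cannot decide on members with that pattern. After Benjamini-Hochberg adjustment 0 of 11815 genes, members included, passed 0.05 for loss of Bmi1 or for loss of Mel18. At an unadjusted p under 0.05 there were 327 genes (2.77%) for Bmi1 and 141 (1.19%) for Mel18. Tnfrsf9 was the 1 member among the 327, with an average change of 0.96 on loss of Bmi1 (SE 0.24, limma adjusted p = 0.854), and Bmi1-deleted arrays were higher in 2 of 2 pairs. Among the 141 were Fas, with an average change of 0.64 on loss of Mel18 (SE 0.23, limma adjusted p = 0.954), and Tnfsf13b, with 1.10 (SE 0.39, limma adjusted p = 0.954). Both were higher with Mel18 deleted in 2 of 2 pairs. None of these 3 passed the correction. The p-values measure only the spread left by the additive model among these 4 arrays.

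Most tested genes on a list of genes that TNF is known to induce were higher on DKO. Of 27 tested genes on the list of TNF-induced genes, 25 were at least 1.5-fold higher in DKO than in WT and 0 lower, against 13.5% and 20.9% of all tested genes, and the median difference was 1.29. The largest were Cxcl13 (2.76), which draws B cells into follicles, Tnfaip6 (2.61), a secreted hyaluronan-binding protein, Cxcl2 (2.42), a neutrophil chemokine, and Tnfaip2 (2.31). Without the 3 genes that also stood on a cell type marker list, 22 of 24 were higher, with a median of 1.24. Against the single deletions 25 of 27 were higher as well, with a median of 1.00, against 13.1% of all tested genes. The list was chosen with earlier results of these data known, so its direction is not independent evidence. On Bmi1_KO 7 of 27 were higher than on WT and 1 lower, against 1.96% and 1.35% of all tested genes. On Mel18_KO 0 were higher and 6 lower, against 1.18% and 2.09%, while Tnf itself differed from WT by -0.11 and -0.20 there.

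Lists of the signalling pathway are read against the same shares of all tested genes, 13.5% higher and 20.9% lower on DKO than on WT. The lists overlap, so their counts are not independent. Nfkbia, Nfkbie and Tnip1 counted both as restraining and as canonical genes. Traf2 counted as an adaptor and as a non-canonical gene. The list of TNF-induced genes also shared genes with these lists, among them Nfkbia and Bcl3, both restraining genes here. Birc2 and Birc3 counted as non-canonical and as execution genes, and Zfp36 as a restraining and as a processing gene. Of 12 genes that restrain TNF signalling, 9 were higher on DKO than on WT and 0 lower (median 0.91), led by Nfkbie (1.44) and Nfkbia (1.27), which hold NF-kB in the cytoplasm, the deubiquitinase Cyld (1.36) and Tnfaip3 (1.05), also known as A20. Of 16 genes of canonical NF-kB signalling 5 were higher and 0 lower (median 0.34). Among them were Rel (1.00) and the restraining genes Nfkbie (1.44), Nfkbia (1.27) and Tnip1 (0.99). Of 6 genes of the non-canonical branch 4 were higher and 0 lower (median 0.67), namely Birc3 (1.33), Nfkb2 (0.84), Relb (0.70) and Birc2 (0.64). Of 11 TRAF and receptor adaptor genes 0 were higher and 2 lower (median 0.08), Fadd (-0.86), the adaptor of death receptors, and Traip (-0.67), a share of lower genes near that over all tested genes.

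Of 17 genes of death receptor execution, 7 were higher on DKO than on WT and 1 lower (median 0.27), against 13.5% and 20.9% of all tested genes. The higher ones included Birc3 (1.33), Cflar (1.13), which blocks caspase 8, Apaf1 (1.06), which activates caspase 9, and Bcl2l1 (0.71), so both inhibitors and an activator of caspases were among them, and Diablo (-0.66) was the lower one. Of 11 genes for the processing and messenger control of TNF, 4 were higher and 0 lower (median 0.49): Timp3 (1.92), an inhibitor of the TNF-releasing protease, Furin (1.24), Zfp36 (0.98), which destabilises Tnf messenger RNA, and Zfp36l1 (0.59). Against the single deletions the counts were 7 higher for the inhibitors, 4 for canonical and 3 for non-canonical NF-kB signalling, 6 for execution and 3 for processing, each with 0 lower, and 0 higher and 2 lower for the adaptors, where 13.1% of all tested genes were higher and 19.7% lower. On Bmi1_KO 1 gene, Birc3, passed 1.5-fold in these 6 lists, which counted in 2 of them, and on Mel18_KO 0 did.

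**Figure D4:**
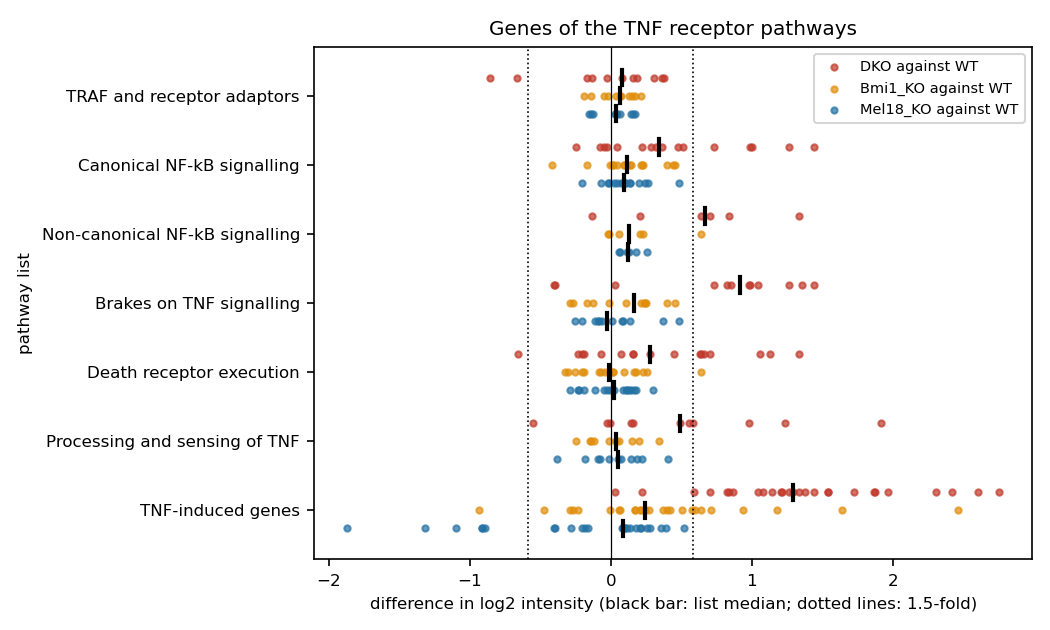
Difference in log2 intensity from WT (x axis) of the tested genes on 7 pathway lists (y axis), with 1 point per gene and a black bar at each list's median, in red for DKO, orange for Bmi1_KO and blue for Mel18_KO. Dotted lines mark 1.5-fold; for the TNF-induced genes the DKO median is 1.29, against 0.24 for Bmi1_KO and 0.08 for Mel18_KO.

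Markers of cells other than epithelium differed on the same arrays, and in RNA from a mixture more cells of a type and more RNA per cell cannot be told apart. On DKO against WT, 13.5% of all tested genes were higher and 20.9% lower. Of 19 tested mononuclear phagocyte markers 18 were higher on DKO than on WT, with a median of 2.12 and a summed intensity of 21662 in DKO, 7343 in Bmi1_KO, 3835 in Mel18_KO and 5703 in WT. Of 18 neutrophil markers 18 were higher (median 2.27), with sums of 36851, 19380.0, 2832 and 8468 in the same order. Endothelial markers were higher in 9 of 9 (median 1.01), fibroblast markers in 12 of 15 (0.79), innate lymphoid cell markers in 5 of 7 (1.71), dendritic cell markers in 3 of 5 (0.89), T and NK cell markers in 4 of 10 (0.45), and B and plasma cell markers in 3 of 7 (0.50). The floor removed many markers of some lists. It left 9 of 17 endothelial, 15 of 18 fibroblast and 7 of 10 innate lymphoid markers on the array. Of dendritic cell markers it left 5 of 14, of T and NK cell markers 10 of 19, and of B and plasma cell markers 7 of 15. The mean includes DKO, so a high DKO value helps a marker to pass. Of 26 pan-epithelial markers 3 were higher and 2 lower, against 13.5% and 20.9% of all tested genes. Their median was 0.18, with sums between 81057 and 90297. Against the mean of the single deletions, 18 of 19 mononuclear phagocyte markers (median 2.15), 18 of 18 neutrophil (2.32), 8 of 9 endothelial (0.95), 9 of 15 fibroblast (0.74), 4 of 7 innate lymphoid (1.51), 3 of 5 dendritic (0.97), 3 of 10 T and NK cell (0.36) and 2 of 7 B and plasma cell markers (0.16) were higher on DKO. Of the pan-epithelial markers 4 were higher there and 2 lower (0.01). In this comparison 13.1% of all tested genes were higher and 19.7% lower. No intensity was 0 on any array, and Cd79a, a defining B cell gene, read no more than 6.27, on Mel18_KO. The part of these markers in the differences of Tnf, Tnfsf13b, Cd40, Tnfrsf9, Fas, Tnfrsf23 and Tnfrsf11b was not tested.

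The marker lists on the single deletion arrays are set beside the members there. On Bmi1_KO 17 of 18 neutrophil markers (median 1.10) and 2 of 19 mononuclear phagocyte markers (median 0.18) were higher than on WT. Over all tested genes the share was 1.96%. There Tnf, Tnfsf13b, Tnfrsf11b, Cd40 and Tnfrsf23 differed by -0.11, -0.11, -0.12, 0.14 and 0.11, Fas by 0.26 and Tnfrsf9 by 0.77. On Mel18_KO 17 of 18 neutrophil markers (median -1.17) and 6 of 19 mononuclear phagocyte markers (median -0.40) were lower, against 2.09% of all tested genes. There Tnf differed by -0.20, Cd40 by -0.30, Tnfrsf23 by -0.44, Tnfrsf11b by -0.80, Tnfrsf9 by -0.01, Tnfsf13b by 0.45 and Fas by 0.54. RANK, whose gene was lower on DKO, is set beside M cell markers. Of 9 tested M cell markers 6 were higher on DKO than on WT (median 0.81), against 13.5% of all tested genes. Against the single deletions 6 of 9 were higher (0.84), against 13.1%. But the defining M cell genes Gp2 and Spib were below the floor. They read 4.31 and 6.16 in DKO, 4.12 and 5.76 in Bmi1_KO, 4.06 and 6.03 in Mel18_KO, and 3.98 and 5.66 in WT.

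**Figure D5:**
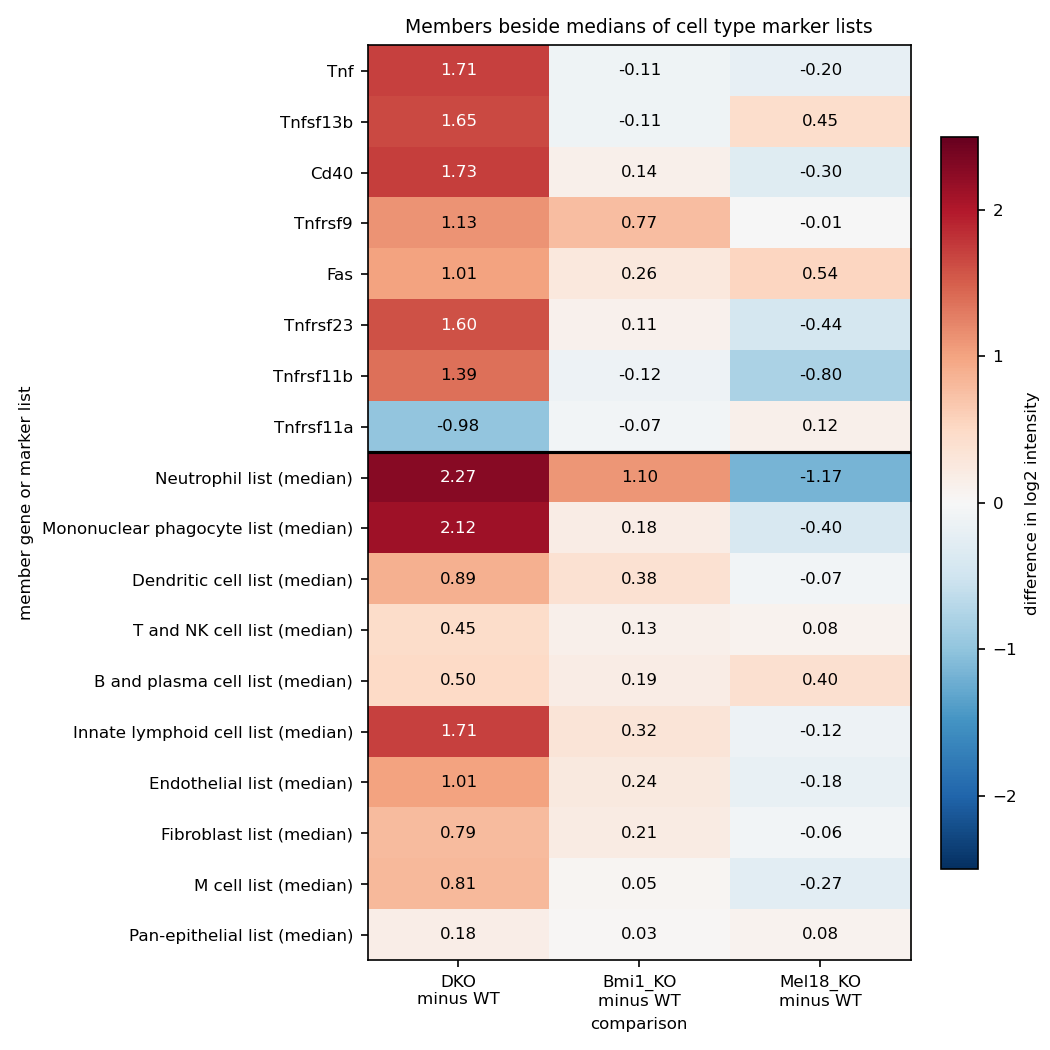
Differences in log2 intensity from WT, as numbers and colours, for 8 members (upper rows) and for the medians of 10 cell type marker lists (lower rows), with DKO, Bmi1_KO and Mel18_KO in columns. The neutrophil median is 2.27 on DKO, 1.10 on Bmi1_KO and -1.17 on Mel18_KO, while Tnf reads 1.71, -0.11 and -0.20.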

How the data were processed

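The authors deposited linear probe set intensities. The submitters' processing notes name RMA and Affymetrix Expression Console for them. They came from 200 ng of RNA on Affymetrix Mouse Gene 1.0 ST arrays, per the labels' protocols. RMA normalizes arrays by quantiles, so a shift shared by most genes would be removed. The sources used here give no versions. Intensities ran from 4.70 to 13738 over 35556 probe sets. The array number limits the precision.

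From these values, log2 was taken. Probe sets with 1 symbol in the platform annotation (21789) were named, the 1621 with several symbols and the 12146 not listed were not, and the brightest set was kept for the 999 genes with more than 1. All 39 member identifiers were found in the RefSeq table, with 0 symbols differing. Differences were counted at 1.5-fold over genes with a mean log2 of at least 6. With this mean, 1 high array keeps a gene less easily than with a floor on the highest array, but it still can. Svs4, high on WT alone, was kept. Of the tested members, Ltb and Tnfrsf4 reached 6 on 3 arrays and the others on 4. The limma package (3.58.1, R 4.3.3) tested average changes (lmFit, eBayes, Benjamini-Hochberg, 0.05), and Python 3.11.15 with pandas 2.3.3 did the rest. The limma procedure was also run on simulated data with changes on loss of Bmi1 and no departure from additivity. That run cannot show how the test performs on genes that differ on DKO alone. The members and lists were chosen with earlier results of these data known. Members past 1.5-fold on DKO and the 3 with the highest mean are given on all 4 arrays, and up to 4 genes are named per pathway list.

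Alternatives were other floors, median centring, cyclic loess, a 2-fold threshold, log2 of the value plus 32, probe sets averaged per gene, an intensity trend in eBayes and, chosen after seeing the data, DKO against each single deletion.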

Additional observations from a re-analysis of the deposited data

Results flagged for a closer look

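Tnfrsf11b, the osteoprotegerin gene, was singled out because loss of Mel18 went with opposite differences in the presence and absence of Bmi1. Its log2 intensity was 9.72 on DKO and 8.22 on Bmi1_KO, a difference of 1.504 for loss of Mel18 where Bmi1 was deleted. With Bmi1 present it was 7.54 on Mel18_KO and 8.34 on WT, a difference of -0.80. Each difference rests on 1 array a side, and the contrast between them, 2.30, was not tested. On the same arrays the neutrophil markers had a median difference from WT of 2.27 on DKO, 1.10 on Bmi1_KO and -1.17 on Mel18_KO, and their part in the contrast was not tested.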

How the results depend on the processing

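The 8 members past 1.5-fold between DKO and WT were past it in the same direction under median centring, cyclic loess, log2 of the value plus 32 and probe sets averaged per gene, and no member's difference that was past the threshold changed sign under any alternative. A floor of 8 left 12 members, fewer than the 26 tested. It gave 3 higher on DKO than on WT and 4 higher than on the single deletions, each against 11.8% of all genes. On Bmi1_KO 0 were higher and 0 lower, against 1.73% and 1.19%. Additivity had 5 above and 1 below, against 13.3% and 23.9%. At 2-fold, 0 members were lower on DKO than on WT, against 8.48% of all genes. On Bmi1_KO 0 were higher and 0 lower, against 0.55% and 0.262%, and on Mel18_KO 0 were lower, against 0.753%. On DKO 5 were higher than on the single deletions, against 6.86%, and 1 was below additivity, against 6.73%. With the floor on the highest array or with no floor, which admit 28 and 39 members, 2 were higher on Bmi1_KO. The shares of all genes there were 2.02% and 1.53%. Median centring gave 2 lower on Bmi1_KO, against 2.02% of all genes, and 1 higher on Mel18_KO, against 1.66%. It gave 2 lower on DKO than on the single deletions, against 22.7%. Log2 of the value plus 32 gave 0 lower on Bmi1_KO, against 0.923% of all genes, and 1 below additivity, against 16.7%. Cyclic loess gave 1 below additivity, against 14.7%. Against Mel18_KO alone, chosen after seeing the data, Tnfrsf11a (-1.10) and Tnfrsf8 (-0.72) were at least 1.5-fold lower on DKO. No share of all genes is given for this comparison, so nothing is read from their number. Except where fewer or more members were tested or the threshold was stricter, the cause was not tested.

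Over all genes, cyclic loess moved the split between DKO and WT to 1962 higher and 2002 lower, against 1594 and 2468 as deposited. Against the single deletions it gave 1963 and 1763, against 1550 and 2333, and for additivity 2138 and 1735, against 1703 and 2353. Median centring put the median of all genes between DKO and WT at -0.14, against which the members' median was 0.26. limma called 0 members under each alternative, with the intensity trend included. No paired analysis was possible because each genotype had 1 array. Members under the floor, such as Cd40lg and Fasl, are limited by signal over background.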

Other observations

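The ligand genes Tnfsf12 (TWEAK) and Tnfsf13 (APRIL) share a probe set that carries both symbols together with Tnfsfm13, so no value is given for either gene. That set read 7.26 in DKO, 7.48 in Bmi1_KO, 7.45 in Mel18_KO and 7.35 in WT, a difference of -0.08 between DKO and WT.

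Some members that lie next to each other in the RefSeq table, with 0 protein-coding genes between them, differed unlike each other on DKO, and others alike. On chromosome 17, Tnf was 1.71 above WT on DKO, against 0.49 for Ltb and 0.50 for Lta, the last below the floor, and against the single deletions the values were 1.87, 0.23 and 0.13. On chromosome 7, Tnfrsf23 differed from WT by 1.60, Tnfrsf26, below the floor, by 1.19, and Tnfrsf22 between them by -0.08. On chromosome 4, Tnfrsf1b and Tnfrsf8 differed from WT by 0.28 and -0.46. On chromosome 17, Tnfsf9 and Cd70 differed alike, by -0.24 and -0.28, Cd70 being below the floor. On chromosome 1, Tnfsf18 and Fasl, both below the floor, differed by 0.19 and 0.05.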
